A study of Mus musculus with 12 samples.

Results

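The genes described here are those with at least 1 edited site in a SINE of their 3' untranslated region (3' UTR), the stretch of mRNA after the stop codon. They were chosen by site class alone, from the class that the authors' editing table gives for each site. Neither editing levels nor tests were used to pick among listed sites, but how sites came to be listed was not given. The table lists 143 sites in 95 genes, of which 100 sites in 62 genes have this class, and none of the 62 genes has a listed site of another class. RNA was taken from frontal cortices of C57BL/6 males, 6 of genotype Adar2-/- Gria2R/R and 6 litter mates of genotype Adar2+/+ Gria2R/R. Both groups thus carried the Gria2R allele, an edited form of this AMPA receptor gene written into the genome, and neither is a plain wild type. The labels used here give no age. The deposited tables hold 1 value per genotype and no value per library, so no SD can be given. The test behind the authors' adjusted p-values for editing was not given, and whether they include the spread between mice or only counting error is unknown.

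Short interspersed elements, or SINEs, are short retrotransposon copies scattered through the genome. When 2 copies lie in opposite orientation in 1 transcript, the RNA can fold back on itself into a double strand. ADAR enzymes bind double-stranded RNA and turn adenosine into inosine, which is read as guanosine. In brain both ADAR1, from the gene Adar, and ADAR2, from Adarb1, edit RNA, and long repeat duplexes are known substrates of ADAR1 while many edited codons are known substrates of ADAR2. Edits in 3' UTRs do not alter the protein sequence, and have been studied for effects on nuclear retention, RNA stability and sensing of double-stranded RNA. No genome of build mm9, on which the sites are placed, was used here, so the bases around the sites are not shown.

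Depth per library and per site is unknown. All 5 markers of cortical excitatory neurons looked up in the gene table were listed, Slc17a7, Tbr1 and Neurod6 among them, as were all markers tried of interneurons, astrocytes, oligodendrocytes, microglia and endothelium. The 3 striatal markers, the choroid plexus marker Ttr and the red cell marker Hbb-b1 were listed too, so listing alone does not tell tissues apart. Mean counts were 33.0 to 638 for the striatal markers, 34.7 for Ttr and 5446 for Hbb-b1. Those of the excitatory neuron markers were 333 to 17440. The targeted gene checks the labels only in part. Adarb1 had a log2 difference of -2.21 between condition A and condition B per the authors' deposited table (adjusted p = 3.06e-126), but the header names the conditions only by these letters. Gene level differences thus read A over B, without a genotype, whereas the editing and exon tables name their genotypes.

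Editing of SINE sites in 3' UTRs went both ways in the knockout. A site is said to have fallen or risen where the authors' adjusted p was under 0.05, and no such call is shown here to exceed the spread between mice. Of the 100 sites, 28 in 22 genes fell, 12 in 12 genes rose, and 60 did not pass. At an adjusted p under 0.01 the rises numbered 5. Over all 143 listed sites 39.2% fell and 9.09% rose. Of the 43 sites of other classes, 28 fell and 1 rose. The median SINE site had 36.6% edited reads in the control and 30.7% in the knockout, and knockout minus control had a median of -3.63 percentage points, against -21.4 points over the other classes. The contrast between classes differed by strand, as given under other observations. By sign alone, 61 SINE sites were lower and 39 higher in the knockout. The falls were the larger changes, with a median of -25.2 points and a range from -76.2 to -7.20. The rises had a median of 14.7 points and a range from 6.30 to 29.1.

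**Figure D1:**
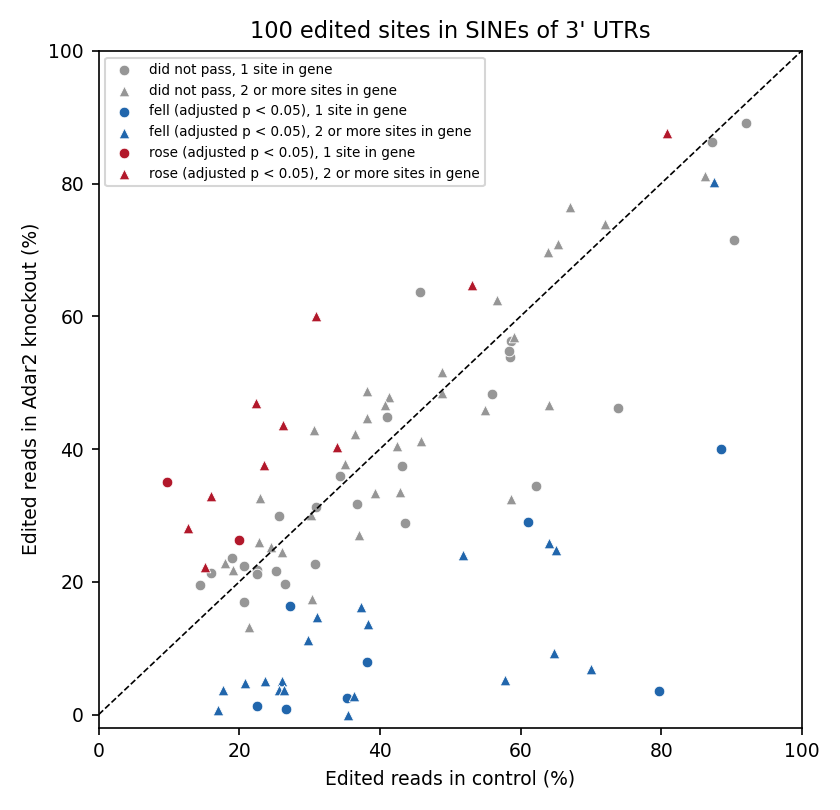
Percent of edited reads in the knockout (vertical axis) against the control (horizontal axis) at the 100 SINE sites, with 1 point per site, colour for the authors' call, shape for the number of sites in the gene, and a dashed line of equal editing. The 28 sites that fell lie below the line and reach down to 0%, and the 12 that rose lie above it, 10 of them at under 50% in the control.

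The sites that fell differed in how much editing was left. At 9 sites in 7 genes the knockout kept at most 10% of the control level, and at another 8 sites it kept between 13.8% and 23.0%. At 9 sites it kept between 35.6% and 47.6%. The other 2 falls, in Cds2 and 4933439C10Rik, left 91.8% and 59.98% of the control level. At the 60 sites that did not pass, the knockout stood between 55.4% and 143% of the control level, with a median of 97.9%.

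Calls were then counted by the level in the control, in classes set after the data had been seen and without a test. The control level enters both the classes and the difference, so part of any trend over the classes is built in. Of 25 sites with at most 25% in the control, 5 fell and 7 rose, with a median difference of 3.24 points. Of 33 sites over 25% and up to 40%, 13 fell and 3 rose, with a median of -6.76 points. In the 22 sites over 40% and up to 60%, 2 fell and 1 rose, and the median was -2.99 points. Of the 20 sites over 60%, 8 fell and 1 rose, with a median of -18.1 points. How sites came to be listed was not given, and every listed SINE site reached at least 16.9% in 1 of the genotypes. Of the SINE sites, 3 were under 15% in the control and 21 under 15% in the knockout, and none was under 15% in both. A site low in 1 genotype could then be listed through its level in the other. The rises from low control levels and the falls to low knockout levels both carry that limit.

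In 37 genes a single SINE site was listed. Of these sites 8 fell, 2 rose and 27 did not pass, and the median difference was -3.73 points. Snhg11, a host gene of small nucleolar RNAs, lost the most of all members. Its site (chromosome 2, position 158210689 on mm9) went from 79.7% in the control to 3.52% in the knockout per the authors' deposited table, a fall of nearly the whole level, with an adjusted p listed as 0. Klhl24, which encodes an adaptor of cullin ubiquitin ligases, fell from 35.3% to 2.48% (chromosome 16, position 20123821, adjusted p = 7.13e-47) per the authors' deposited table. Glt8d2, whose product has a glycosyltransferase domain, fell from 26.6% to 0.901% (chromosome 10, position 82113524, adjusted p = 4.83e-17) per the authors' deposited table. Rabl5, now named Ift22 and known from intraflagellar transport, fell from 22.5% to 1.36% (chromosome 5, position 137388969, adjusted p = 1.04e-20) per the authors' deposited table. In these 4 genes the knockout kept between 3.38% and 7.01% of the control level.

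The other 4 falls in genes with a single site left more editing. Fzd3, a Wnt receptor with a part in axon guidance, fell from 38.2% to 7.91% (chromosome 14, position 65816028, adjusted p = 4.08e-21) per the authors' deposited table. Psma3, a subunit of the proteasome core, fell from 88.6% to 40% (chromosome 12, position 72095616, adjusted p = 1.87e-20) per the authors' deposited table, and had the highest control level of any SINE site that fell. Fam32a fell from 61.1% to 29.1% (chromosome 8, position 74747481, adjusted p = 3.26e-09) per the authors' deposited table. The RIKEN transcript 4933439C10Rik fell from 27.2% to 16.3% (chromosome 11, position 59324557) per the authors' deposited table, with an adjusted p of 0.0443 that lies close to the threshold.

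Both rises in genes with a single site started from low control levels. The zinc finger gene Zfp324 rose from 9.76% to 35% (chromosome 7, position 13557536, adjusted p = 0.0179) per the authors' deposited table, the largest ratio of knockout to control among the 100 sites. Its control level was also the lowest of the 100 sites, so the limit of listing given above bears on this ratio. Taok1, which encodes a protein kinase of the Ste20 family, rose from 19.97% to 26.3% (chromosome 11, position 77349556, adjusted p = 0.0217) per the authors' deposited table.

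In 25 genes between 2 and 4 SINE sites were listed, 63 sites in all. Of these 20 fell, 10 rose and 33 did not pass, with a median difference of -2.05 points over sites, or -5.06 points over genes when the sites of a gene were averaged first. At least 1 site was called in 10 of the 37 genes with a single site (27.03%) and in 18 of the 25 genes with more (72.0%), a count that more sites per gene raise by themselves. By site the called share was 10 of 37 against 30 of 63, and over all listed sites 48.3% were called. The median size of a difference, whichever its sign, was 5.58 points in the genes with a single site and 9.99 points in those with more. Gene levels differed as well, with a median mean count of 1436 in the former and 2095 in the latter. The part of read depth in these counts was not tested. The sites of 1 gene share a transcript and are not independent.

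In genes with several sites, calls often differed between the sites of 1 gene. A called site beside one that did not pass does not by itself show unlike changes. In 3 genes every listed site fell, in no gene did every site rise, and in 7 genes no site passed. In 5 genes a fall stood beside sites that did not pass, and in 4 genes a rise did. In 6 genes 1 site rose while another fell. Within a gene the differences of its sites spanned a median of 20.2 points.

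**Figure D2:**
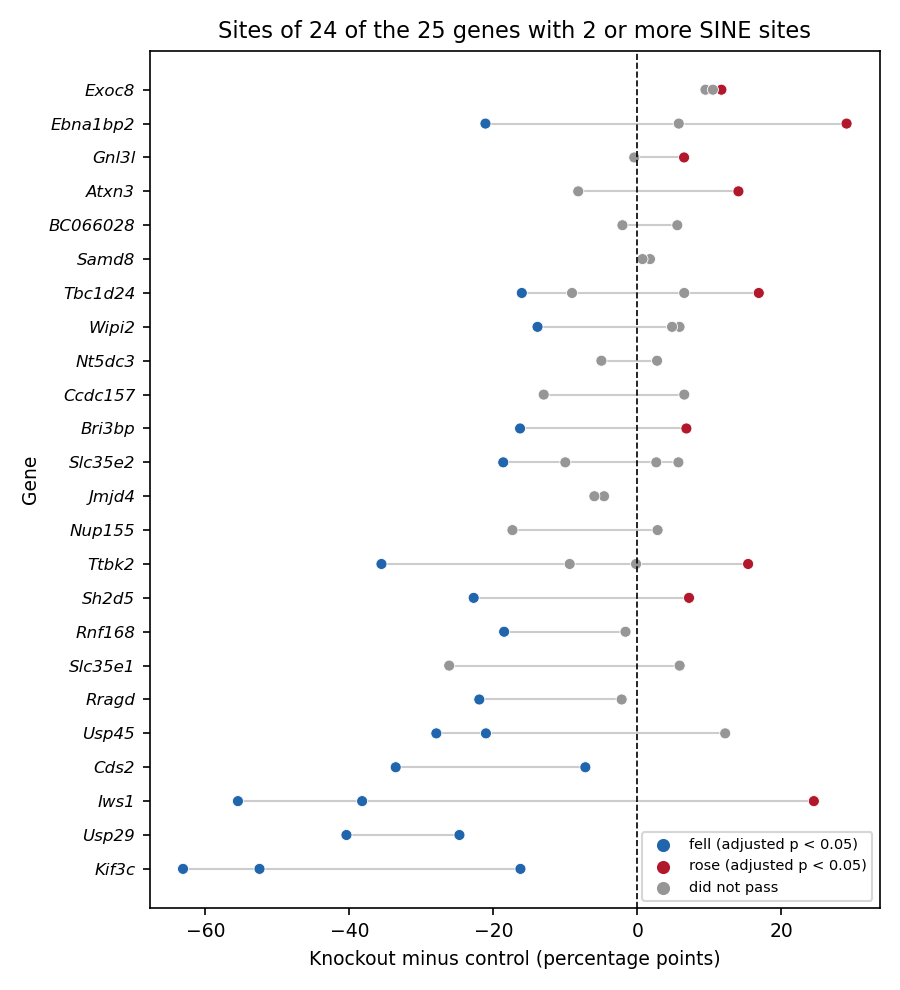
Difference of knockout from control in percentage points (horizontal axis) for each site of 24 of the 25 genes with at least 2 SINE sites (vertical axis, ordered by the mean difference of the gene), with 1 point per site and a grey line over the range within a gene. In Kif3c, Usp29 and Cds2 all sites lie below 0 and fell, while in 6 genes blue and red points share a line.

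Kif3c, which encodes a kinesin motor subunit of neurons, lost editing at all 3 of its sites on chromosome 12. In the authors' deposited table position 3404248 fell from 70.03% to 6.93%, and positions 3404647 and 3404648, 1 base apart, fell from 57.8% to 5.28% and from 16.9% to 0.694%. The largest adjusted p of the 3 was 8.37e-19. Their control levels spanned more than 50 points, but the share left in the knockout was similar, at 9.89%, 9.13% and 4.11% of the control level. Usp29, which encodes a deubiquitinating enzyme, fell on chromosome 7 from 38.3% to 13.6% at position 6919163 and from 65.1% to 24.7% at position 6919225 per the authors' deposited table (adjusted p = 0.005 and 2.94e-07). Here too the shares left were close, at 35.6% and 37.96%.

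Cds2 behaved otherwise. It encodes a synthase of CDP-diacylglycerol, a precursor of phosphoinositides, and had the highest mean count of all members, 23529. On chromosome 2 it fell from 36.3% to 2.75% at position 132135391 per the authors' deposited table (adjusted p = 6.46e-98). At position 132135616, 225 bases on, it went from 87.5% to 80.3% per the authors' deposited table (adjusted p = 5.56e-06). Both passed, but the first site kept 7.58% of its control level and the second 91.8%.

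In 6 genes sites had opposite calls. At an adjusted p under 0.01 the rises in Sh2d5, Tbc1d24 and Bri3bp did not pass. Iws1, which encodes a partner of the transcription elongation factor Spt6, had the widest span. On chromosome 18 it rose from 22.3% to 46.9% at position 32262158 (adjusted p = 0.00306) per the authors' deposited table. The same table, the authors' deposited table of sites, gave falls from 64.1% to 25.8% at position 32262253 and from 64.7% to 9.23% at position 32262531 (adjusted p = 8.53e-06 and 8.68e-11). The first pair lies 95 bases apart, and its differences of 24.5 and -38.2 points were the farthest apart of any pair of neighbours.

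Ebna1bp2, known from ribosome biogenesis, had opposite calls only 17 bases apart on chromosome 4. Position 118298731 fell from 26.1% to 5.04% and position 118298748 rose from 30.9% to 60% per the authors' deposited table (adjusted p = 1.99e-05 and 6.82e-05). Its remaining site at position 118299413 stood at 63.9% and 69.6% per the authors' deposited table and did not pass (adjusted p = 0.467). Sh2d5, which encodes an adaptor protein with an SH2 domain, had its 2 sites 13 bases apart on chromosome 4. Position 137815945 rose from 15.1% to 22.3% and position 137815958 fell from 26.4% to 3.63% per the authors' deposited table (adjusted p = 0.0187 and 6.93e-23).

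Ttbk2, a tau tubulin kinase needed for cilia, had 4 sites on chromosome 2. Position 120562688 fell from 35.5% to a value listed as 0, position 120562711 stood at 30.2% and 30%, and position 120562737 rose from 12.8% to 28.2% per the authors' deposited table (adjusted p = 8.09e-35, 1 and 1.26e-04). These 3 sites lie within 49 bases. The distant site at position 120559513 stood at 42.9% and 33.5% per the authors' deposited table (adjusted p = 0.0953). Among the called sites of Ttbk2, the one that rose lies upstream in the transcript, since the gene is on the minus strand in GENCODE M21.

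Tbc1d24, whose product works in vesicle traffic at synapses, also had 4 sites, on chromosome 17. Position 24313433 fell from 20.8% to 4.8% and position 24315254 rose from 16% to 32.9% per the authors' deposited table (adjusted p = 2.95e-06 and 0.0249), 1821 bases apart. Position 24315256, only 2 bases from the rise, stood at 38.2% and 44.7%, and position 24315298 at 55% and 45.9%, per the authors' deposited table (adjusted p = 0.586 and 0.638). Bri3bp rose on chromosome 5 from 80.8% to 87.7% at position 125936975 and fell from 31.0% to 14.7% at position 125937847 per the authors' deposited table (adjusted p = 0.0286 and 2.28e-06). This rise is the only one that began at a high level, since the other 11 began between 9.76% and 53.0%.

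In 5 genes a fall stood beside sites that did not pass. Usp45, another deubiquitinating enzyme, had 2 falls 9 bases apart on chromosome 4, from 37.3% to 16.3% at position 21761929 and from 51.9% to 24.0% at position 21761938 per the authors' deposited table (adjusted p = 3.15e-06 and 4.8e-08). Its remaining site, at position 21761695, stood at 30.6% and 42.9% per the authors' deposited table and did not pass (adjusted p = 0.101). Wipi2, which encodes a lipid-binding protein of autophagosome formation, fell on chromosome 5 from 17.6% to 3.76% at position 143145246 per the authors' deposited table (adjusted p = 2.19e-14). Its adjacent positions 143145189 and 143145190 stood at 40.7% and 18.0% in the control, against 46.6% and 22.9% in the knockout per the authors' deposited table (adjusted p = 0.0731 and 0.0649).

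Slc35e2, of a family of nucleotide sugar transporters, fell at 1 of 4 sites on chromosome 4. That site, at position 154996025, went from 23.6% to 5% per the authors' deposited table (adjusted p = 8.84e-09). Positions 154996012 and 154996013, 13 and 12 bases before it, stood at 36.5% and 19.2% in the control and 42.2% and 21.8% in the knockout per the authors' deposited table (adjusted p = 0.316 and 0.648). Position 154996480 stood at 37.1% and 27.1% per the authors' deposited table (adjusted p = 0.0946). Rnf168, a ubiquitin ligase of the DNA damage response, fell on chromosome 16 from 29.8% to 11.3% at position 32300418 per the authors' deposited table (adjusted p = 2.05e-06). Its site 44 bases before, at position 32300374, stood at 26.1% and 24.5% per the authors' deposited table (adjusted p = 0.862). Rragd, a Rag GTPase that signals amino acid supply, fell on chromosome 4 from 25.6% to 3.67% at position 33106395 per the authors' deposited table (adjusted p = 6.33e-46). Its site at position 33107392 stood at 59.1% and 56.9% per the authors' deposited table (adjusted p = 0.604). In these last 2 genes the sites had control levels that were alike in Rnf168 and far apart in Rragd.

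In 4 genes a rise stood beside sites that did not pass. Exoc8, a subunit of the exocyst, had 3 sites on chromosome 8, all higher in the knockout. Position 127417779 rose from 53.0% to 64.7% per the authors' deposited table (adjusted p = 0.00697). Positions 127418084 and 127418090 stood at 67.0% and 38.2% in the control, against 76.5% and 48.7% in the knockout per the authors' deposited table (adjusted p = 0.0733 and 0.0901). The 3 differences, between 9.48 and 11.7 points, were nearly equal although 1 passed and 2 did not. Atxn3, the deubiquitinating enzyme behind a polyglutamine ataxia, rose on chromosome 12 from 23.6% to 37.6% at position 103159841 and stood at 21.4% and 13.2% at position 103158082 per the authors' deposited table (adjusted p = 0.0109 and 0.148). Gnl3l, a nucleolar GTPase, rose on chromosome X from 33.9% to 40.4% at position 147420072 and stood at 48.8% and 48.4% at position 147419161 per the authors' deposited table (adjusted p = 0.00572 and 0.988).

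Among the 60 sites that did not pass, several were edited in most reads in both genotypes. Trove2, which encodes the RNA-binding protein Ro60, stood at 92.1% in the control and 89.1% in the knockout per the authors' deposited table (adjusted p = 0.379). Rbm8a, a core protein of the exon junction complex, stood at 87.2% and 86.3%, and Nt5dc3 at 86.2% and 81.2% at its higher site, per the authors' deposited table (adjusted p = 1 and 0.502). Samd8, an enzyme of sphingolipid synthesis, stood at 72.1% and 73.8% at its higher site per the authors' deposited table (adjusted p = 0.888). BC066028 stood at 65.3% and 70.8% at its higher site per the authors' deposited table (adjusted p = 0.604).

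Other sites with a high control level had wide differences that did not pass. Txndc9, which encodes a protein with a thioredoxin domain, stood at 90.3% and 71.4% per the authors' deposited table (adjusted p = 0.212). 4933407H18Rik, now named Uvssa and known from transcription-coupled DNA repair, stood at 73.9% and 46.2% per the authors' deposited table (adjusted p = 0.137). This was the widest difference among the sites that did not pass, at -27.8 points, and is larger than the median of the sites that fell. Nup155, a protein of the nuclear pore, stood at 64% and 46.7% at its higher site per the authors' deposited table (adjusted p = 0.254). Its other site stood at 48.8% and 51.6% per the authors' deposited table (adjusted p = 0.940). A site that did not pass is thus not shown to be unchanged. The genes hosting sites that fell had a median mean count of 2896 (28 sites), those of the sites that rose 2353 (12 sites), and those of the sites that did not pass 1895 (59 sites). How far read depth set the calls was not tested.

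The spacing of sites was read from their positions. Neighbouring sites in 1 gene, 38 pairs in 25 genes, lay between 1 and 3175 bases apart, and 19 of the pairs were at most 100 bases apart. Of these 19 pairs, 10 had the same call (52.6%): 3 fell together, 7 did not pass together, and none rose together. Of the 19 pairs farther apart, 8 had the same call (42.1%). A fall beside a rise occurred in 3 of the near pairs and 2 of the far ones. The gap between the differences of neighbours had a median of 15.6 points in near pairs and 19.8 points in far pairs, where pairs of sites from different genes had 15.9 points. The pairs from different genes were drawn from all 100 sites, those of genes with a single site included. Neighbours come only from genes with several sites, so these medians do not compare like with like. They are a description over pairs that share sites and reads.

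Most of the closest pairs had the same call. Of the 8 pairs between 1 and 9 bases apart, 7 had the same call, 5 of them with no site passing, and the median gap was 4.98 points although their control levels differed by a median of 22.5 points. The pair in Tbc1d24 had a rise 2 bases from a site that did not pass. The same call did not always mean a like difference. The Kif3c pair, 1 base apart, had a gap of 36.3 points, the third widest of the 38 pairs, and the Nt5dc3 pair, 3 bases apart, had differences of -4.97 and 2.76 points, of opposite sign. None of the 5 pairs between 12 and 26 bases apart had the same call, and their median gap was 29.9 points. These pairs lie in Slc35e2, Sh2d5, Ebna1bp2 and Ttbk2. Of the 6 pairs between 42 and 95 bases apart, 3 had the same call. These classes of distance were set after the pairs had been seen, rest on few pairs, and were not tested.

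**Figure D3:**
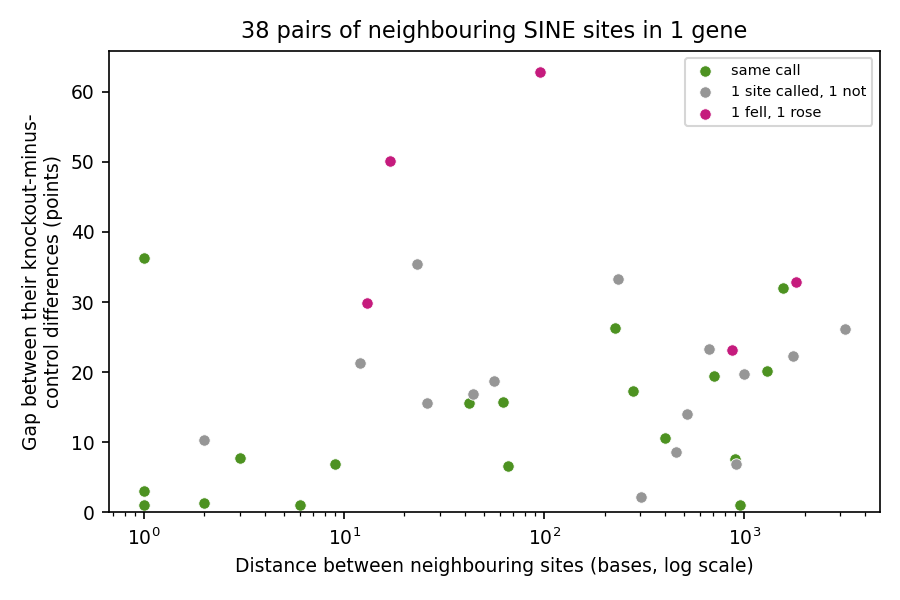
Gap between the knockout-minus-control differences of 2 neighbouring SINE sites in percentage points (vertical axis, from 0) against their distance in bases (horizontal axis, log scale), with 1 point per pair and colour for whether the calls were the same, different by 1 call, or opposite. Of the 8 pairs within 9 bases, 7 carry the same call, and the 3 near pairs with opposite calls lie 13, 17 and 95 bases apart.

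Along the transcript, the order of sites was taken from the strand of each gene in GENCODE M21, which was found for 24 of the 25 genes with several sites. Of the 24 sites nearest to the stop codon, 5 fell and 7 rose, with a median difference of 4.28 points. Among the 24 sites farthest from it, 10 fell and 1 rose, with a median of -9.68 points. The counts also differed by strand. On the plus strand the nearest sites of 16 genes held 5 falls and 3 rises and the farthest 9 falls and 0 rises, with medians of 0.08 and -15.0 points. On the minus strand the nearest sites of 8 genes held 0 falls and 4 rises and the farthest 1 fall and 1 rise, with medians of 8.53 and -4.30 points. The order was looked at after the data had been seen, and neither difference was tested.

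The 3' UTRs of the members were compared with those of other listed genes, a property that is not independent of the choice of members. That choice requires a SINE in the 3' UTR and editing detected in it, and editing acts on double-stranded RNA, so a higher share of inverted repeats is in part built into it and is given as a description. The longest 3' UTR annotated in GENCODE M21 (59 members matched) had a median of 3453 bases, against 1222 bases over 13678 other genes of the gene table. An inverted repeat, that is, a stretch that matches the reverse complement of another stretch of the same UTR over at least 100 bases, was found in 22 of the 59 members (37.3%) and in 115 of the other genes (0.841%). With at least 150 aligned bases the counts were 4 members and 53 other genes (6.78% against 0.387%). The search was added after the data had been seen. Members had longer UTRs, so classes of length were compared. Over 4000 bases the counts were 11 of 21 members and 63 of 1182 other genes (52.4% against 5.33%), and over 2000 and up to 4000 bases they were 9 of 25 and 41 of 3065 (36% against 1.34%). Up to 1000 bases, 0 of 5 members and 1 of 5905 other genes had one. The other genes include those with no SINE at all, so these shares do not compare like with like in repeat content.

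**Figure D4:**
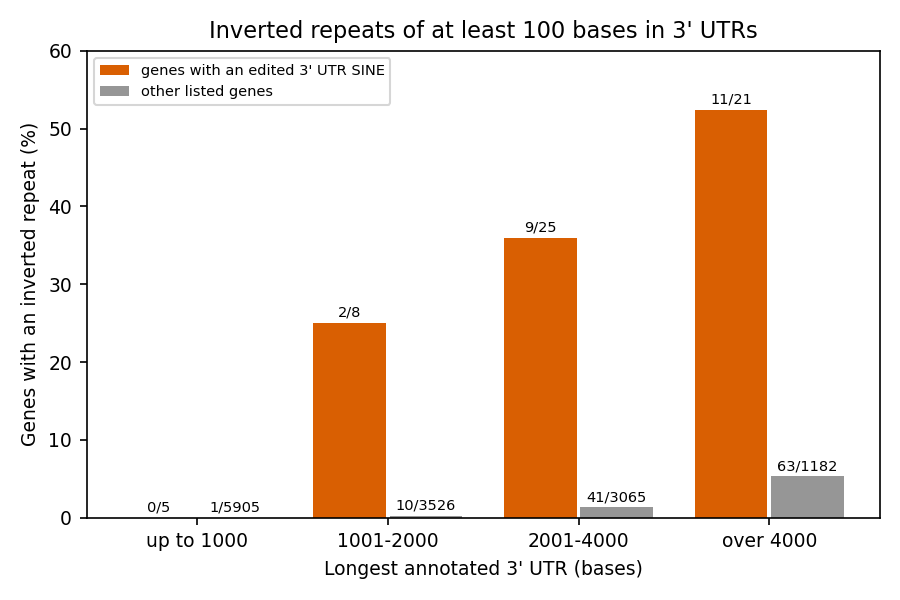
Share of genes with an inverted repeat of at least 100 bases in the longest annotated 3' UTR (vertical axis, percent, from 0) by UTR length (horizontal axis, bases), for members and for other listed genes, with counts above the bars. In each length class over 1000 bases the bar of the members, between 25% and 52.4%, is higher than that of the other genes, at 0.284% to 5.33%.

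Repeats in the same orientation, which cannot pair with each other, were looked for by the same search. They were found in 16 of the 59 members (27.1%) and in 290 of the other genes (2.12%). Over 4000 bases, direct repeats were found in 12 of 21 members (57.1%) and 112 of 1182 other genes (9.48%). Of the UTRs with a repeat of either kind, an inverted one was present in 22 of 27 members (81.5%) and 115 of 359 other genes (32.0%). The inverted pairs of members had a median aligned length of 140.5 bases at a median identity of 75.2%, with a median of 1136 bases between the arms.

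An inverted repeat was counted by number of sites and by call, with no test. It was found in 13 of 24 members with several sites and in 9 of 35 with a single site (54.2% and 25.7%), whose median UTR lengths were 3561 and 2563 bases. The 45 sites of members with an inverted repeat had a median difference of -3.65 points, with 12 falls and 7 rises. The 51 sites of members without one had a median of -3.73 points, with 15 falls and 5 rises. In 7 genes a site kept at most 10% of its control level. Of these, Kif3c, Snhg11, Cds2, Glt8d2 and Rabl5 had no inverted repeat of 100 bases in their annotated 3' UTRs. Ttbk2 and Klhl24 had one, of 145 and 133 bases. The pair in Iws1 was 167 bases long with 167 bases between its arms. A partner outside the annotated UTR, or of lower identity, would be missed by this search. The position of a site within a repeat was not determined.

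Levels of the member genes were looked up in the authors' gene table. Of the 62 members, 61 were found by name, and the member written as a date was left out since its name is uncertain. None of the 61 passed an adjusted p of 0.05 in this table, which has the form that DESeq writes, and 0 had an unadjusted p under 0.05. Over all 15191 genes 0.0197% passed and 1.86% had an unadjusted p under 0.05. The change was under 1.2-fold in all 61, as in 91.6% of all listed genes. The members' median log2 difference of A over B was -0.01, against 0.01 over all genes, with 27 higher and 34 lower in A. Members had a median mean count of 1895, against 624 over all genes, and log2 differences of genes with low counts vary more. In whole tissue, fewer cells of a type and less RNA per cell cannot be told apart.

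The 10 members with the smallest p were spread over both signs. The lowest was 4933439C10Rik, with a log2 difference of A over B of -0.19 (p = 0.073), followed by BC066028 at -0.17 (p = 0.121), both from the authors' deposited table. Lower in A by the same sign were Ncl, which encodes nucleolin, at -0.09, Iws1 at -0.12, the mitochondrial outer membrane protein gene Cisd2 at -0.09, the mitochondrial ribosome gene Mrpl43 at -0.10 and Rbm8a at -0.07 per the authors' deposited table. Glt8d2 at 0.11, Nt5dc3 at 0.12 and Bri3bp at 0.10 had positive values per the authors' deposited table. The adjusted p was 1 for each of them.

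Differences between the conditions were also taken by call. The 22 members with a fall had a median log2 difference of 0.001 and a range from -0.19 to 0.11. The 12 members with a rise had a median of -0.001 and a range from -0.12 to 0.10. The 33 members with no call had a median of -0.02. Snhg11 and Kif3c, which lost most of their editing, stood at 0.03 and -0.01, and Cds2 at -0.02, as log2 differences of A over B from the authors' deposited table. Of the 60 members with a current symbol, 22 overlap a gene on the opposite strand and 6 one on the same strand in GENCODE M21. How reads in these overlaps were counted was not given, which limits the levels of such members.

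**Figure D5:**
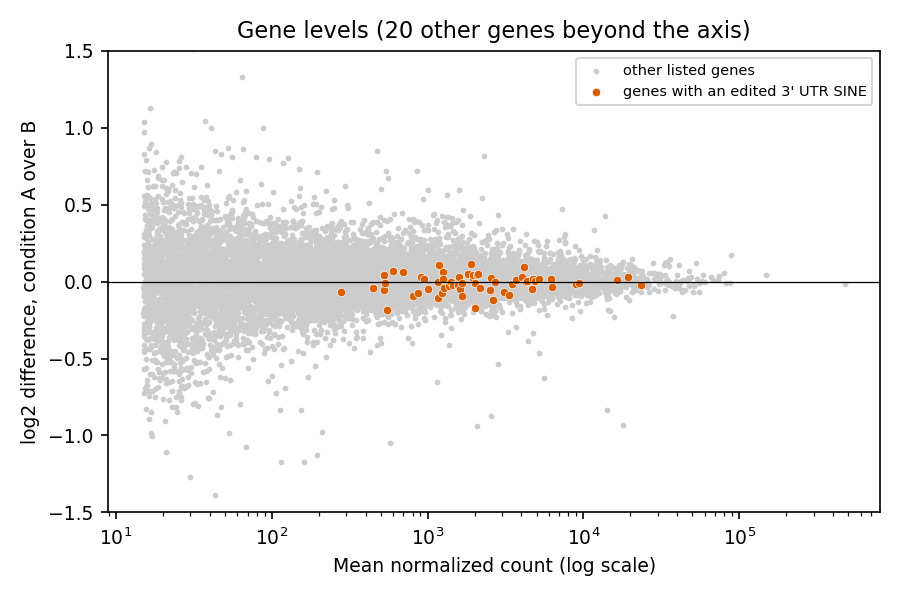
Log2 difference of condition A over condition B (vertical axis) against the mean normalized count (horizontal axis, log scale) for all listed genes in grey and the 61 members in orange. The members lie between -0.19 and 0.12, and 20 other genes fall outside the vertical range.

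Exon usage was looked up by Ensembl identifier. Bins of 53 members were found under a single identifier, 654 bins in all, and 4 more members had 83 bins in entries that merge several genes. None of the 654 bins passed an adjusted p of 0.05 in the authors' exon table, where 0.00738% of all bins did. An unadjusted p under 0.05 was found for 6 of them (0.917%), where 1.67% of all bins had one. In the merged entries 0 of 83 bins passed and 4 had an unadjusted p under 0.05. The median size of a log2 change, whichever its sign, was 0.06 in members and 0.07 over all bins. Bins carry no coordinates in the table, so which of them hold the edited sites is not known here.

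Among bins under a single identifier the smallest p was that of E008 of Iws1, with a log2 change of knockout over control of -0.35 (p = 0.00896) per the authors' deposited table. In Nt5dc3, bins E011 and E010 had log2 changes of -0.29 and -0.24 (p = 0.0126 and 0.0499) per the authors' deposited table. E009 of Ufd1l, a cofactor of protein extraction for degradation, was at 0.22, E006 of Ccdc157 at -0.41 and E010 of Psma3 at -0.35 per the authors' deposited table. Further values were E014 of 9930104L06Rik at -0.36 and E017 of Slc7a2, an amino acid transporter, at 0.30 per the authors' deposited table. For all 10 bins with the smallest p the adjusted p was 1. The 4 bins of merged entries with an unadjusted p under 0.05 lie in the entries of Bfar and Sh2d5, which other genes share.

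Genes that write, bind or sense double-stranded or inosine-containing RNA were followed through a list of 32, of which 26 were in the gene table. Adarb1 alone passed an adjusted p of 0.05. Without it, 14 of 25 were higher and 11 lower in A, with a median log2 difference of 0.01 and 1 unadjusted p under 0.05. Adar and Adarb2, the other members of the enzyme family, stood at 0.02 and 0.08 as log2 differences of A over B from the authors' deposited table. The sensors Ifih1 and Eif2ak2 were at 0.06 each, Ddx58 at 0.04, Tlr3 at 0.16 and Dhx58 at 0.42, from the authors' deposited table. Dhx58 had a mean count of only 31.9. The inosine-RNA binders Nono, Sfpq and Matr3 were at 0.01, -0.02 and -0.01, and Pspc1 was at -0.12, from the authors' deposited table. Oas1a, an interferon-induced sensor with a mean count of 25.5, was at 0.78 (p = 0.0296, adjusted p = 1) per the authors' deposited table.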

How the data were processed

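Frontal cortex RNA was extracted with Trizol and made into libraries with a stranded total RNA kit after ribosomal RNA removal, per the labels' protocols. Build mm9 and the tools DESeq, HTSeq, SAMtools 01.19.0, Bowtie2 2.02.0 and TopHat2 2.0.6 stand in the submitters' processing notes, without roles. The site caller, its treatment of strand, its coverage filter and the test behind the editing p-values were not given here.

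All values were the authors' comparisons, per the file headers. The editing table gives the deposited percent of edited reads per genotype, an adjusted p-value from the authors and a position, another kind of deposited value. The gene table gives a mean normalized count, a signal made by the authors, with a deposited ratio of condition B over A, its log2 value and p-values. The exon table gives the deposited mean count, log2 ratio, p-values and a dispersion, which is a score. No value per library was present. Means for A and B, 2 columns, were left out because no genotype is named. Depth is unknown.

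The 100 sites were taken by class after trimming blanks. Named were all sites that passed, all sites of genes with at least 3, the 10 highest control levels that did not pass, and the 10 smallest p-values among member genes and bins. Partner sites were added after the values were seen, in genes with 2 sites of which at least 1 was called, and in Nup155. Members, lists and tests were chosen with earlier results of these data known. Calls used the authors' adjusted p-values, since exact permutation tests need values per library. For 4 members an older name was matched through RefSeq (GRCm38.p6). The 3' UTRs came from GENCODE M21 (GRCm38), with no coordinates taken across builds. Each was aligned to itself with BLAST+ 2.17.0 (e-value at most 1e-05, identity at least 70%, low-complexity filter on). The search was tested on simulated sequences whose arms were on average more alike than the repeats found in members. How well it finds repeats of lower identity was not tested. This search, all classes of control level, remaining share, spacing and UTR length, and the order along the transcript were added after the data were seen. Values of 1 member that meets the naming rule are not reported here, and it is left out of the plot of genes with several sites. No sequence is printed.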

Additional observations from a re-analysis of the deposited data

How the results depend on the processing

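No paired analysis was possible because every deposited value is a group value. Leaving out each library was not run for the same reason. Of the sites that fell, between 26 and 33 were counted under the alternatives, against 28. Sites that rose numbered 5 at an adjusted p under 0.01, against 12, and 8 with a difference of at least 10 points. The median difference in genes with at least 2 sites was -5.06 points when averaged per gene first, against -2.05. Neighbours with the same call made up 53.3% at most 50 bases apart and 47.4% at any distance, against 52.6%. No member gene or bin passed under any alternative run. Inverted repeats were found in 4 members with at least 150 aligned bases, against 22, and in 27 with at least 50, settings added after the data were seen. Depth per site is unknown and limits every site that did not pass.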

Other observations

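Calls were also counted by the strand of the gene in GENCODE M21. Of 60 SINE sites in 37 genes on the plus strand, 24 fell and 5 rose, with a median difference of -6.58 points, while of 37 sites in 23 genes on the minus strand, 4 fell and 7 rose, with a median of 1.61 points. By gene, a fall was found in 18 of 37 genes on the plus strand and 4 of 23 on the minus strand. The sites of other classes leaned the opposite way, with 4 falls among 10 sites on the plus strand and 24 among 32 on the minus strand. Their median differences were -0.69 and -24.0 points. On the plus strand 40% of the SINE sites and 40% of the sites of other classes fell, against 10.8% and 75% on the minus strand. Median mean counts of the SINE genes were 1811 on the plus strand and 1966 on the minus strand. The split by strand was noticed in these data. How the authors' site calling treated strand was not given. The part of strand in the counts of falls and rises, in the contrast between classes, and in the order along the transcript was not tested.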
